A study of Rattus norvegicus with 10 samples.

Results

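The 8 genes described here encode auxiliary subunits and intracellular regulators of voltage-gated sodium channels: Scn2b, Scn3b and Scn4b for beta subunits, Fgf12, Fgf13 and Fgf14 for the fibroblast growth factor homologous factors, Nedd4l for a ubiquitin ligase, and Dpysl2, which encodes collapsin response mediator protein 2 (CRMP2). They were taken by gene name from a table of 30560 rat genes, each name had 1 row, and all 8 had enough counts to be among the 15186 genes tested. The tissue was the L6 dorsal root ganglion, where the cell bodies of spinal sensory neurons lie, taken for RNA sequencing from 7 to 8 week old Sprague Dawley rats. One group of 5 samples came from rats given phosphate-buffered saline (PBS, 0 mg of siRNA) and the other group of 5 from rats dosed with 0.75 mg of the divalent siRNA (small interfering RNA) SCN9A_2544, whose target is Scn9a, the gene of the sodium channel Nav1.7. Rats of both groups had a lumbar intrathecal catheter implanted, were dosed through it 5 days after that surgery, and received the analgesic meloxicam, and every sample is labelled 14 days. No group given a non-targeting siRNA was analysed here.

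A voltage-gated sodium channel is built around a pore-forming alpha subunit, such as Nav1.7. Beta subunits are single-pass membrane proteins of the immunoglobulin fold that associate with the alpha subunit, set its gating and help carry it to the surface. The homologous factors are not secreted: they bind the cytoplasmic tail of the alpha subunit and shift its inactivation. NEDD4-2, the product of Nedd4l, ubiquitinates several alpha subunits and so promotes their removal from the membrane, whereas CRMP2 holds Nav1.7 at the surface depending on its SUMO modification. The series design asks how specific the siRNA was, and these partners are the genes whose products act on the silenced channel.

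Library totals ran from 11832376 to 15420006 estimated counts. The mean of 20 pan-neuronal genes, none of them among the 8, ran from 8.05 to 9.25 log2 CPM (counts relative to the TMM-scaled library total) in PBS and from 7.82 to 9.22 in treated libraries, and 3 libraries were poorest in neuronal RNA: SCN9A_2544 replicate 3, PBS replicate 3 and PBS replicate 5. In bulk tissue, fewer neurons and less RNA per neuron cannot be told apart. All 16 Schwann cell and all 10 satellite glia markers were also detected, and of 7 central glia markers only Gfap, which peripheral glia express too, had enough counts to be tested. Scn9a itself averaged 175 ± 50.2 CPM with PBS against 85.4 ± 23.9 CPM with the siRNA (SD, 5 libraries per group), and the groups did not overlap. Even so, Scn9a did not pass the adjusted threshold in the test without a covariate given below.

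Upstream sequence is shown for a neighbouring pair of beta subunit genes and for the homologous factor genes Fgf12 and Fgf14, taken from RefSeq on the rat build GRCr8, which differs from the build of the counts. Windows were matched for 6 of the 8 genes. Scn2b and Scn4b are direct neighbours on chromosome 8, with 0 annotated genes between them, and their log2 levels over the 10 libraries had r = 0.585 with each other. The 250 bases before the start of Scn2b (chr8:54322133-54322382, plus strand) held 38.8% G or C and 1 CG dinucleotide, and those before Scn4b (chr8:54343623-54343872, plus strand) held 71.6% and 21. Over 33469 rat windows of the same length the median was 51.2%, and 11.3% of windows had a lower share than Scn2b against 93.6% for Scn4b. Capitals mark CG in this pair.
Scn2b: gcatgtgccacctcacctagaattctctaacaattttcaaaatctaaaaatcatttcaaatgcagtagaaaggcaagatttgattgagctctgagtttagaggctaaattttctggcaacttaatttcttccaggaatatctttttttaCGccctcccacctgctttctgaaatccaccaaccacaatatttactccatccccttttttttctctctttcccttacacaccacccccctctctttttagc
Scn4b: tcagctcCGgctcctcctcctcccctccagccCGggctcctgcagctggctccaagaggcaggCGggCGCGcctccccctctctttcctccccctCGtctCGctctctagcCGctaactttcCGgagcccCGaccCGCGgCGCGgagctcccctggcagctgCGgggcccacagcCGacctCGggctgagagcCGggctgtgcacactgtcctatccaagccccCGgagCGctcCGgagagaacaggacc

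Fgf12 and Fgf14 encode closely related proteins, and of the 3 homologous factor genes Fgf12 followed neuronal RNA most closely while Fgf14 did not follow it. The windows shown are chr11:85501697-85501946 (plus strand) for Fgf12, and, for the pair of annotated Fgf14 starts, chr15:108086413-108086662 and chr15:107680746-107680995 (both minus strand). Capitals mark matches, on either strand, to 7 short motifs chosen with these sequences in view. Among promoter elements of general use, the TATA box, searched as TATAAA, lay in 12.9% of all windows. The CCAAT box, searched by those 5 letters, lay in 34% of them. The GC box, read as GGGCGG, was present in 30.5% of windows. The POU octamer, ATGCAAAT, occurred in 1.56%. An E-box of the form CACGTG was found in 5.59%. The core of the cAMP response element, TGACGT, was found in 6.95%. The NRF1 core, GCGCATGC, occurred in 2.2%. A second annotated Fgf12 start (chr11:85801508-85801757, plus strand, not printed) held 0 matches and 3 CG, so what follows for Fgf12 holds for the first start only. The first Fgf12 window held 2 CCAAT matches, 2 overlapping GC boxes, 1 NRF1 core and 1 POU octamer. The first Fgf14 window held 1 E-box and 1 cAMP response core, and the second held 1 CCAAT match and 1 GC box. Scn2b and Scn4b held 0 of the 7 motifs. Of the windows not printed, that of Fgf13 (38.8% G or C) held 1 match, to the CCAAT box. That of Nedd4l (82.8% G or C) held 7 matches, to the CCAAT and GC boxes. A match is a description of the letters and not a bound site.
Fgf12 first start: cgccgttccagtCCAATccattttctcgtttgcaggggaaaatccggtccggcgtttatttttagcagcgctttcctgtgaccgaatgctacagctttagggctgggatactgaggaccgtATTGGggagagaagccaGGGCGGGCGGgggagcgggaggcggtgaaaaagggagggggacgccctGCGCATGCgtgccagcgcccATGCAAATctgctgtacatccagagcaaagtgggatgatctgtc
Fgf14 first start: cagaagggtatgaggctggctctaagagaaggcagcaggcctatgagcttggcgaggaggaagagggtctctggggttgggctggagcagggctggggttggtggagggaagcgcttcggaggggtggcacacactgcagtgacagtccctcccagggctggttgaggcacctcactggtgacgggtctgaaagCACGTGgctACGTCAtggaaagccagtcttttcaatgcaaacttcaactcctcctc
Fgf14 second start: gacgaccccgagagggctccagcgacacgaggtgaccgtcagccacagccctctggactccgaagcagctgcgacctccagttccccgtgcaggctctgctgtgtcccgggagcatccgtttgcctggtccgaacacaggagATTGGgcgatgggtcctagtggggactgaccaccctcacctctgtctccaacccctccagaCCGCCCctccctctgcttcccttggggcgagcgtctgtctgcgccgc

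Of the 8 genes, 0 passed an adjusted p of 0.05 between the groups in edgeR's quasi-likelihood test, as did 0% of all 15186 genes tested. The target Scn9a was not called in this fit either (log2 fold change -1.03, unadjusted p = 0.00134, adjusted p = 0.963). A fall of that size thus went uncalled. An unadjusted p under 0.05 was reached by 1 of the 8, Fgf14, and by 4.23% of all genes. Log2 fold changes, treated against PBS, were above 0 for 7 of the 8 and below 0 for Fgf14, with a median of 0.10 against 0.02 over all genes tested, of which 53.4% lay above 0. The median standard error of the 8 was 0.27. When the pan-neuronal mean entered the fit as a covariate it was 0.15, and the 8 then split into 4 above and 4 below 0, again with 0 past the adjusted threshold, where Scn9a was the 1 gene called (0.00659% of those tested).

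**Figure D1:**
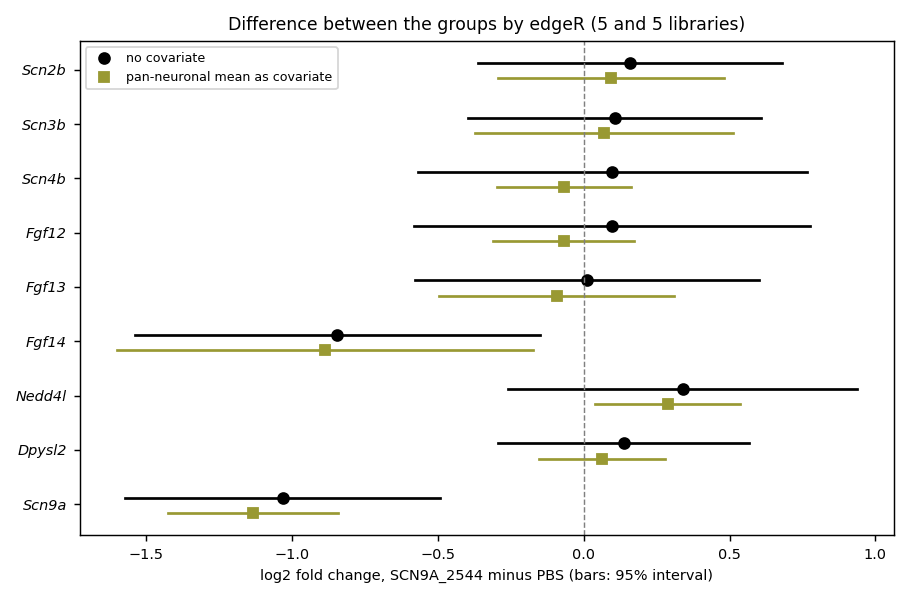
Log2 fold change of each gene, SCN9A_2544 minus PBS, with its 95% interval from the edgeR fit over 5 and 5 libraries, without a covariate (black circles) and adjusted for the pan-neuronal mean (olive squares). The intervals of Fgf14 and of the target Scn9a lie below 0 in both fits, that of Nedd4l lies above 0 with the covariate, and those of the other 6 genes span 0.

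The beta subunit genes showed no difference beyond the spread between libraries. Scn4b encodes beta4, which links to the alpha subunit by a disulfide bond and carries the cytoplasmic segment associated with resurgent sodium current. It stood at 599.6, 527, 310.1, 593 and 348 CPM in PBS replicates 1 to 5 and at 666, 601, 219, 403 and 656.5 CPM in treated replicates 1 to 5. The groups overlapped throughout, and the lowest values in each were those of the neuron-poor libraries. Its log2 fold change was 0.10 (95% interval -0.57 to 0.77, edgeR adjusted p = 0.989). With the pan-neuronal covariate the value was -0.07 (-0.30 to 0.16), a change of sign and a narrower interval.

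Scn2b encodes beta2, the other disulfide-linked beta subunit of this set. Its values were 83.0, 64.7, 57.3, 74.3 and 46.9 CPM in PBS replicates 1 to 5 and 72.4, 75.6, 41.7, 111 and 62.7 CPM in treated replicates 1 to 5. The highest of the 10 was treated replicate 4 and the lowest treated replicate 3, so the treated group spanned the PBS group. The log2 fold change was 0.16 (-0.36 to 0.68, edgeR adjusted p = 0.976), and -0.048 without treated replicate 4.

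Scn3b encodes beta3, which binds the alpha subunit without a disulfide bond. It stood at 86.5, 54.9, 70.6, 68.5 and 41.4 CPM in PBS replicates 1 to 5 and at 58.3, 60.6, 48.1, 98.7 and 80.6 CPM in treated replicates 1 to 5. Treated replicate 4 was again the highest of the 10 libraries, and PBS replicate 5 the lowest. Its log2 fold change was 0.11 (-0.40 to 0.61, edgeR adjusted p = 0.979), and -0.056 without treated replicate 4. In the fit with all libraries, changes as large as a fall to 0.759-fold or a rise to 1.52-fold thus lay inside the interval for Scn3b, and 0.777-fold to 1.601-fold for Scn2b.

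**Figure D2:**
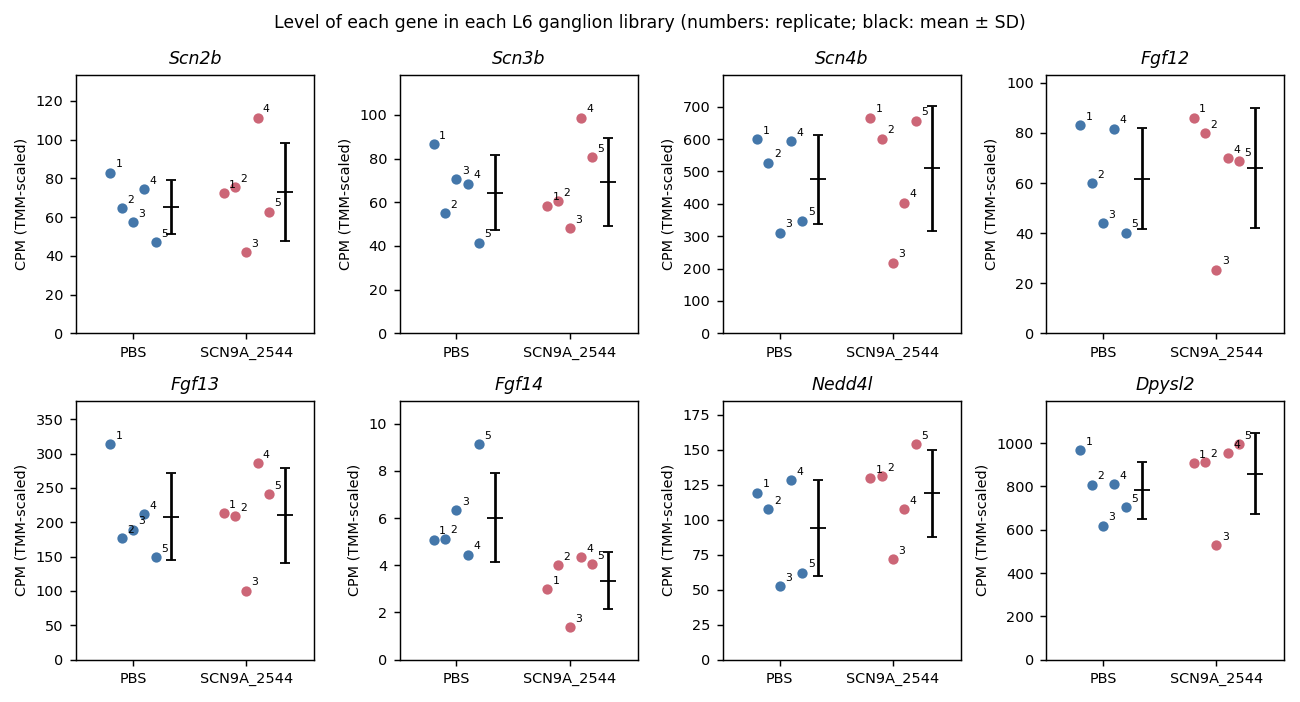
Level of each gene in TMM-scaled CPM in the 5 PBS (blue) and 5 SCN9A_2544 (red) libraries, with the replicate number beside each point and the group mean ± SD in black. The groups overlap for every gene but Fgf14, whose highest treated value, 4.34 CPM, lies just under the lowest PBS value, 4.44 CPM, and treated replicate 3 is the lowest library for Scn2b, Scn4b, Fgf12, Fgf13, Fgf14 and Dpysl2.

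Among the homologous factors Fgf14 stood apart from Fgf12 and Fgf13. Fgf14 encodes a factor whose loss in humans causes a spinocerebellar ataxia. Its values were 5.08, 5.12, 6.32, 4.44 and 9.14 CPM in PBS replicates 1 to 5 and 2.99, 4.01, 1.36, 4.34 and 4.04 CPM in treated replicates 1 to 5. All 5 treated libraries lay below all 5 PBS libraries, a separation shared by 0.665% of the genes tested in either direction and by 0.211% in this direction. Mean levels were 6.02 ± 1.87 CPM with PBS and 3.35 ± 1.22 CPM with the siRNA (SD, n = 5 each). The log2 fold change was -0.84 (SE 0.32, 95% interval -1.54 to -0.15), with an unadjusted p = 0.0213 and an adjusted p = 0.963 in the edgeR fit, so it did not pass. With the pan-neuronal covariate it was -0.89, with an adjusted p = 0.503. With a Schwann cell covariate it was -0.85, and Fgf14 was again the 1 of the 8 with an unadjusted p under 0.05, where 8.55% of all genes had one.

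The separation of Fgf14 was narrow and rested on few counts. Libraries held 20 to 137 counts of Fgf14, the 20 in treated replicate 3 with an exact 95% Poisson interval of 12.2 to 30.9 and the 137 in PBS replicate 5 with one of 115 to 162, which cover counting error only. The closest libraries of the groups, PBS replicate 4 at 4.44 CPM (counting interval 3.32 to 5.83) and treated replicate 4 at 4.34 CPM (3.38 to 5.50), were not distinguishable at this depth. Under upper-quartile scaling the groups overlapped, the lowest PBS value being 4.35 and the highest treated value 4.40 CPM, as they did when counts were divided by library totals alone (4.39 and 4.47 CPM). With DESeq2 size factors the groups did not overlap, the lowest PBS value being 4.402 and the highest treated value 4.344 CPM. The extremes were neuron-poor libraries: leaving out the 3 neuron-poor libraries, the log2 fold change was -0.37 (unadjusted p = 0.136), and without PBS replicate 5 and treated replicate 3, a choice made after seeing the data, it was -0.47.

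The mean log2 level of markers of satellite glia, which wrap around each sensory neuron's soma, did not overlap between the groups. The summed level of the same markers did overlap. How often means of other gene lists separate the groups was not computed. The mean of all 10 tested markers was 6.04 to 6.37 log2 CPM in PBS and 6.55 to 6.71 in treated libraries, with summed levels of 3290 to 4876 CPM and 4604 to 5504 CPM. The 12 macrophage markers had a mean of 3.30 to 3.98 log2 CPM in PBS and 3.71 to 4.63 in treated libraries, with summed levels of 136 to 218 CPM and 209 to 387 CPM. The part of either in the Fgf14 difference was not tested.

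**Figure D3:**
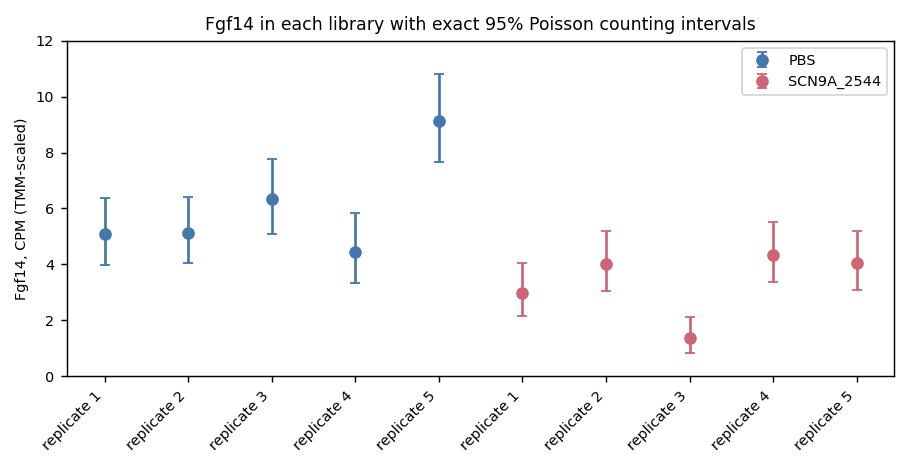
Fgf14 level in TMM-scaled CPM in each PBS (blue) and SCN9A_2544 (red) library, with exact 95% Poisson counting intervals. PBS replicate 5 at 9.14 CPM and SCN9A_2544 replicate 3 at 1.36 CPM are the extremes, and the intervals of PBS replicates 1 to 4 overlap those of SCN9A_2544 replicates 2, 4 and 5.

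Fgf12 and Fgf13 showed no difference beyond the spread between libraries. Fgf12 encodes a factor abundant in neurons and heart, and it stood at 83.1, 60.0, 44.0, 81.7 and 40.2 CPM in PBS replicates 1 to 5 and at 86.1, 80.0, 25.4, 70.0 and 68.6 CPM in treated replicates 1 to 5. High and low libraries occurred in both groups, and the 3 lowest were the neuron-poor ones. The log2 fold change was 0.10 (-0.58 to 0.77, edgeR adjusted p = 0.990), and -0.07 with the pan-neuronal covariate. Fgf13, which lies on the X chromosome and encodes a factor of sensory neurons needed in mice for normal heat nociception, stood at 314, 177, 189, 211 and 149 CPM in PBS replicates 1 to 5 and at 214, 209, 100.03, 286 and 241 CPM in treated replicates 1 to 5. The means, 208 ± 63.4 and 210 ± 68.7 CPM (SD, n = 5 each), differed by far less than the spread within either group. Its log2 fold change was 0.01 (-0.58 to 0.60, edgeR adjusted p = 0.997), and its sign turned in 13 of 20 alternatives, other scalings included, against 5 of 20 for Fgf12.

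The cytoplasmic regulators Nedd4l and Dpysl2 had log2 fold changes above 0 but showed no difference beyond the spread between libraries. Nedd4l values were 119, 107.7, 52.5, 128 and 62.3 CPM in PBS replicates 1 to 5 and 129.9, 131, 71.9, 107.7 and 154 CPM in treated replicates 1 to 5. The groups overlapped, and 3 treated libraries lay above every PBS library. The log2 fold change was 0.34 (-0.26 to 0.94, unadjusted p = 0.239, edgeR adjusted p = 0.963). With the pan-neuronal covariate it was 0.29 (0.04 to 0.53), with an unadjusted p = 0.0262 and an adjusted p = 0.513. In that fit 2 of the 8 genes, Nedd4l and Fgf14, had an unadjusted p under 0.05, as did 9.54% of all genes. Relative to the pan-neuronal mean in the same library, Nedd4l lay at -2.25 ± 0.13 on the log2 scale in PBS and -1.98 ± 0.23 in treated libraries (SD, n = 5 each), with overlap, and without the 3 neuron-poor libraries its log2 fold change was 0.12.

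Dpysl2 had the most even levels of the 8 genes, with coefficients of variation of 16.8% in PBS and 21.9% in treated libraries. It stood at 967, 809, 618, 811 and 704 CPM in PBS replicates 1 to 5 and at 907, 912, 529, 954 and 996 CPM in treated replicates 1 to 5. Treated replicate 3 was the lowest of all and the other 4 treated libraries clustered near the top of the PBS range. The log2 fold change was 0.14 (-0.29 to 0.57, edgeR adjusted p = 0.9747), so a fall below 0.816-fold or a rise above 1.48-fold lay outside the 95% interval.

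Because Scn9a was lower in treated libraries, the ratio of most of these transcripts to Scn9a in the same library was higher there. For each Scn9a count there were 2.27 to 3.46 Scn4b counts in PBS and 4.14 to 7.17 in treated libraries. Fgf13 had 1.00 to 1.38 counts and 2.07 to 2.94 counts, and Dpysl2 3.76 to 5.35 and 8.78 to 11.9 counts. The ranges did not overlap for 7 of the 8 genes, nor for 49% of all other genes tested against the same denominator. Fgf14 was the exception, at 0.0198 to 0.0695 counts in PBS and 0.0289 to 0.0479 in treated libraries. These ratios are not corrected for transcript length and are set in direction by their denominator, so they carry no test.

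Over the 10 libraries, 6 of the 8 genes followed the pan-neuronal mean, where 21% of all genes tested did so in the positive direction (Pearson permutation p, adjusted over all 15186 genes). In the negative direction 0 of the 8 and 18% of all genes passed. The median r of the 8 was 0.83 and that of all genes 0.00103. Each gene and the mean come from the same library, so they share its depth and its mix of cells. Scn4b had r = 0.964 (permutation p = 4e-05, adjusted p = 0.00132) and rho = 0.818 (permutation p = 0.00568, adjusted p = 0.0288), and r = 0.901 without the 2 libraries farthest from the median. Fgf12 had r = 0.963 (permutation p = 9e-05, adjusted p = 0.00182) and rho = 0.939 (permutation p = 0.00024, adjusted p = 0.00618), and r = 0.966 without those 2. These 2 genes passed by rank as well. The share of all genes passing by rank was not counted, for this mean or for the marker means below.

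Nedd4l, with r = 0.905 (permutation p = 0.00206, adjusted p = 0.00996) and rho = 0.758 (permutation p = 0.0149, adjusted p = 0.0534), kept r = 0.911 without the 2 farthest libraries. Dpysl2 had r = 0.914 (permutation p = 0.00088, adjusted p = 0.00584), rho = 0.636 (permutation p = 0.055, adjusted p = 0.127) and r = 0.678 without them. Fgf13 had r = 0.756 (permutation p = 0.00931, adjusted p = 0.029), rho = 0.673 (permutation p = 0.0395, adjusted p = 0.101) and r = 0.581 without them. Scn2b passed narrowly, with r = 0.714 (permutation p = 0.0193, adjusted p = 0.0497), rho = 0.685 (permutation p = 0.0354, adjusted p = 0.0932) and r = 0.491 without them. Scn2b no longer passed with DESeq2 size factors (adjusted p = 0.0521) or with any 1 library left out other than treated replicate 4 (adjusted p = 0.053 to 0.234). In the 7 libraries richer in neuronal RNA, 0 of the 8 genes passed. There r was 0.881 for Fgf12 (permutation, adjusted p = 0.199), 0.765 for Scn4b (0.31) and 0.654 for Nedd4l (0.451). It was 0.114 for Dpysl2, 0.0948 for Fgf13 and -0.243 for Scn2b, so the relation of these last 3 rests on the neuron-poor libraries.

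Scn3b and Fgf14 did not pass. Scn3b had r = 0.459 (permutation p = 0.182, adjusted p = 0.28) and rho = 0.358 (permutation p = 0.313, adjusted p = 0.456), with r = 0.519 without the 2 farthest libraries. Fgf14 had r = 0.143 (permutation p = 0.686, adjusted p = 0.765) and rho = -0.212 (permutation p = 0.56, adjusted p = 0.689). Without the 2 farthest libraries its r was -0.842, and without treated replicate 3 alone it was -0.78 (permutation, adjusted p = 0.0402), a negative relation past the threshold, so 1 library set both its sign and its call. Among PBS libraries the neuron-poor replicates 5 and 3 held the most Fgf14.

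**Figure D4:**
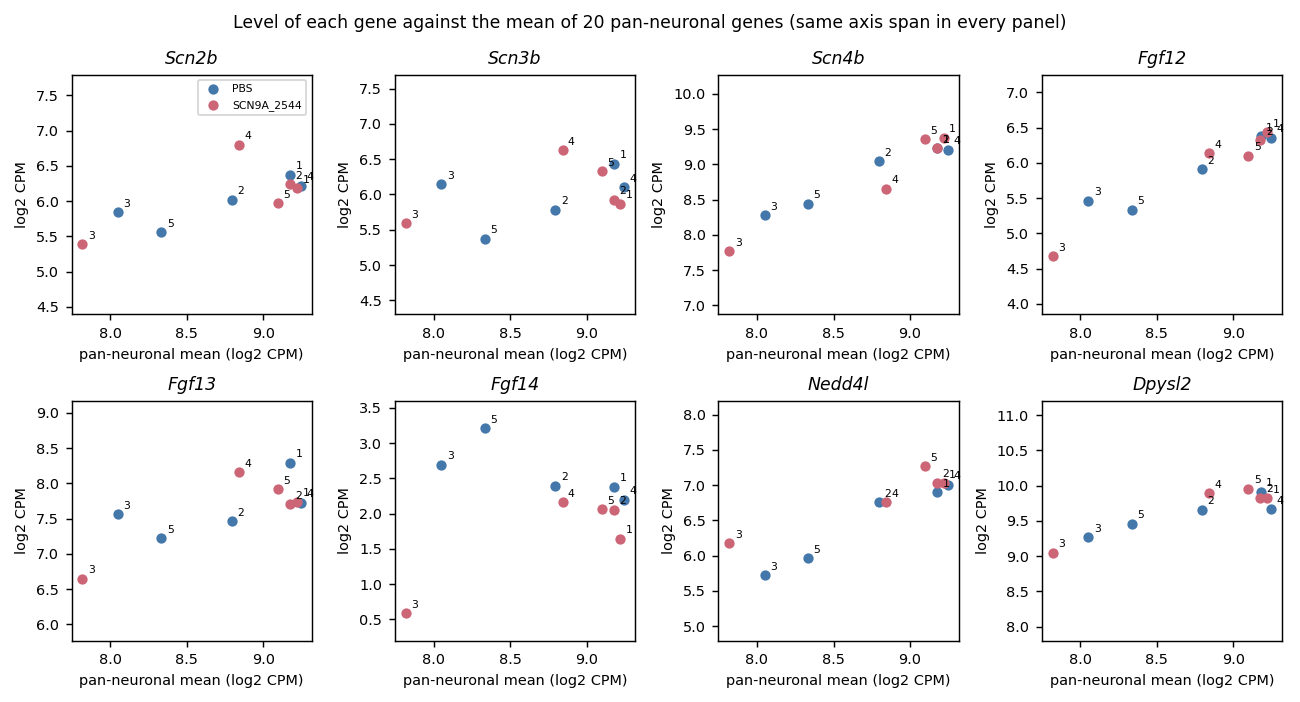
Log2 CPM of each gene against the mean log2 CPM of 20 pan-neuronal genes, for 5 PBS (blue) and 5 SCN9A_2544 (red) libraries with replicate numbers, every panel spanning the same range. Points of Scn4b and Fgf12 lie close to a line (r = 0.964 and 0.963), those of Scn3b scatter (r = 0.459), and SCN9A_2544 replicate 3 lies far below the other libraries for Fgf14 (r = 0.143).

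The genes were also set against markers of sensory neuron types, by lists added after the values were seen. Against the mean of 7 tested markers of large-diameter sensory neurons (Ntrk3, Ntrk2 and others), Scn4b was the 1 member of the 8 that passed, with r = 0.815 (permutation p = 0.00257, adjusted p = 0.0292) and rho = 0.818 (permutation p = 0.00593, adjusted p = 0.0598), where 15.6% of all genes passed in either direction. Its r was 0.543 without the 2 libraries farthest from the median, so part of the relation rests on them. Scn3b had r = -0.00381 (permutation p = 0.991, adjusted p = 0.995) and rho = -0.152 (permutation p = 0.682, adjusted p = 0.792) with the same mean, and r = -0.281 without the 2. Against the mean of 10 nociceptor markers, Scn3b had r = 0.613 (permutation p = 0.0618, adjusted p = 0.125) and rho = 0.527 (permutation p = 0.122, adjusted p = 0.247), and did not pass, with r = 0.804 without the 2. Scn4b passed there too, with r = 0.849 (permutation p = 0.00321, adjusted p = 0.0155) and rho = 0.673 (permutation p = 0.039, adjusted p = 0.115), and r = 0.651 without the 2. In all, 6 of the 8 genes passed against the nociceptor mean by r and 0 by rho, where 36.3% of all genes passed by r in either direction. Altogether, 32 relations of the 8 genes with 4 marker means were computed, and the difference between Scn3b and Scn4b was not itself tested.

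The genes closest in pattern over the 10 libraries were taken by Pearson r of log2 CPM among tested genes with a symbol. Those of Scn2b were Ccdc172 (r = 0.965), Slc17a6, the vesicular glutamate transporter of many sensory neurons (0.959), and Myadm (0.952). Those of its neighbour Scn4b were Robo2, an axon guidance receptor (0.986), Slitrk3 (0.985) and Luzp2 (0.984), and none of these 3 was among those closest to Scn2b. Scn3b was closest to Tph2, a tryptophan hydroxylase of serotonin synthesis (0.971), Gpr85 (0.958) and Ptpro (0.939).

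Fgf12 was closest to the kinase gene Camkk1 (0.991), the respiratory complex I gene Ndufs1 (0.986) and Mctp2 (0.984). Fgf13 ran with Dctn4, a dynactin subunit (0.995), Ywhab (0.979) and Dcaf6 (0.976), and Nedd4l with Fam189b (0.986), Dctn1, another dynactin subunit (0.985), and Camsap1 (0.984). Dpysl2 was closest to Mapk9, a JNK kinase (0.986), Mtus2 (0.972) and the mitochondrial fission gene Dnm1l (0.971). The nearest genes to Fgf14 were less close: Nol3 (0.921), Tmx3 (0.919) and Epdr1 (0.915). Fgf14 had only 20 to 137 counts per library, and the part of counting error in these lower values was not tested.

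In the fit without a covariate, the wider set of genes that build or modify these complexes gave 0 calls. It held 95 genes in 8 lists, members included, of which 92 were tested, and 0 passed an adjusted p of 0.05 in either direction by edgeR. An unadjusted p under 0.05 was reached by 1 higher and 4 lower genes of the 92, where 2.5% and 1.73% of all genes did so. The 1 higher was Ptprz1, a receptor phosphatase that binds sodium channels and a satellite glia marker here, with a log2 fold change of 0.42 (adjusted p = 0.963). The 4 lower were Scn9a, Fgf14 and the kinase genes Rock1 and Rock2, whose products phosphorylate CRMP2, at -0.61 and -0.39 (both adjusted p = 0.963). With the pan-neuronal covariate 1 of the 92 passed the adjusted threshold, Scn9a. In that edgeR fit 12 of the 92 had an unadjusted p under 0.05, as did 9.54% of all genes.

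By list, medians of the log2 fold change lay between -0.06 and 0.25, against 0.02 over all genes. The 5 CRMP family genes were all above 0 with a median of 0.25, led by Dpysl3 at 0.44 and Dpysl5 at 0.35. Of the 13 anchors and adhesion partners, such as ankyrins and contactins, 11 lay above 0 with a median of 0.19, and L1cam and Cntn2 had the smallest p at 0.25 and 0.44. Of the 13 beta subunit genes and the secretases that cleave beta subunits, 9 lay above 0 with a median of 0.10, and Psenen and Aph1b, gamma-secretase subunits, had -0.24 and -0.21. Of the 16 tested ligases and regulators of the NEDD4 family, 7 lay above 0 with a median of -0.06, with Wwp1 at -0.33 and Itch at -0.24. The 16 genes that modify CRMP2 or act with it in endocytosis had a median of 0.03, the 15 tested cytoplasmic partners and kinases 0.01, with Camk2d at 0.20, and the 10 alpha subunits 0.04, where Scn7a had -0.50. The 4 homologous factors, with Fgf11, had a median of 0.02. Adjusted for the pan-neuronal mean, the medians were 0.04 for the anchors and adhesion partners, 0.19 for the CRMP family and 0.07 for the beta subunit list. They were -0.07 for the NEDD4 family and 0.01 for the genes that modify CRMP2 or act with it. Those of the alpha subunits, the homologous factors and the cytoplasmic partners changed sign, to -0.05, -0.08 and -0.03, and that of all genes was 0.0093.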

How the data were processed

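Bulk RNA sequencing was done on rat L6 dorsal root ganglia, 5 PBS and 5 SCN9A_2544 samples, from poly(A) selected RNA, per the labels' protocols. The authors deposited estimated counts per gene, not normalized, with 11.6% to 12.4% of values per library not whole. STAR 2.7.10a, DESeq2 1.44.0 and mRatBN7.2 are named, per the submitters' processing notes, with no role. The sources used here do not give the counting program, annotation or strand setting, so reads of antisense transcripts cannot be told apart. Groups follow the sample titles. Whether a sample is 1 animal is not stated in the labels, and the p-values reflect sample-to-sample spread, which may be technical.

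Estimated counts were rounded, filtered with filterByExpr (minimum count 10, minimum total 15), scaled by TMM and tested with edgeR 4.0.16 (R 4.3.3, quasi-likelihood F-test, Benjamini-Hochberg over 15186 genes, threshold 0.05). The design had assumed counts, and the test was kept. Log2 CPM used a prior count of 2. Correlations used 1e+05 permutations, or all of them where fewer exist. Alternatives included DESeq2 1.42.0 and limma 3.58.1. Procedures were run on simulated data as a check of the code. How many planted changes of a given size were recovered is not reported here. Named genes were the 8 members, Scn9a, the 2 with the smallest p of each list and any past the threshold, and the 3 closest in pattern to each member. Other genes reaching an unadjusted p under 0.05, and those in the neuron-type lists, were named after values were seen. Where a symbol had more than 1 row, the row with more counts was used. Members and lists were chosen with earlier results of these data known. Same-numbered libraries were not paired by the labels.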

Additional observations from a re-analysis of the deposited data

Results flagged for a closer look

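In 16 groups of 5 libraries, one for each of the 8 genes and each treatment, the end value was set apart by a gap of more than 0.71 of the group's range in 2. Chance gives about 1 in 20 such groups if they are independent and normally distributed. These 16 are not independent, since they share the same libraries, and the share over all genes was not counted. Both flagged values were SCN9A_2544 replicate 3, the library with the lowest pan-neuronal mean. Fgf12 stood at 25.4 CPM, with a gap of 0.712 of the range to the next treated library, and Dpysl2 at 529 CPM, with a gap of 0.809. Log2 levels of Fgf12 and Dpysl2 had r = 0.907 over the 10 libraries. Without this library the log2 fold changes of Fgf12 and Dpysl2 were 0.27 and 0.24, against 0.10 and 0.14 with it.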

How the results depend on the processing

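Under 20 alternatives, 0 of the 8 genes passed an adjusted p of 0.05 in any. Over all genes the count of 0 (642 at an unadjusted p under 0.05) became 17 by DESeq2 and 1 with each of limma voom, either covariate, the 7 libraries richer in neuronal RNA, and the fit without PBS replicate 5 and SCN9A_2544 replicate 3, and ran from 0 to 1 with 1 library left out. The gene called with either covariate was Scn9a. In the other fits with calls Scn9a did not pass. Its adjusted p was 0.0604 by DESeq2, 0.140 by limma voom, 0.227 in the 7 libraries and 0.756 without PBS replicate 5 and SCN9A_2544 replicate 3. Fgf14, Nedd4l and Dpysl2 kept their sign throughout, Fgf14 between -0.96 and -0.37. Its unadjusted p stayed under 0.05 in 17 of the 20. With 1 library left out, log2 fold changes ran from -0.048 to 0.27 for Scn2b, -0.056 to 0.24 for Scn3b, -0.022 to 0.26 for Scn4b, -0.048 to 0.27 for Fgf12, -0.12 to 0.21 for Fgf13, 0.06 (without PBS replicate 3) to 0.24 for Dpysl2 and 0.19 to 0.48 for Nedd4l. Dpysl2 was at 0.062 and 0.055 with the pan-neuronal and Schwann cell covariates. Voom with library weights gave higher values: 0.37 for Fgf12, 0.27 for Scn4b, 0.24 for Fgf13, 0.23 for Scn3b and Scn2b, 0.22 for Dpysl2. Fgf13, near 0, also turned to -0.0025 with DESeq2 size factors, -0.019 with upper-quartile scaling, -0.015 with no filter, -0.0011 by DESeq2, -0.093 and -0.097 with the pan-neuronal and Schwann cell covariates, and -0.0061 in the 7 libraries. Scn4b turned to -0.068, -0.090 and -0.0030 under these last 3, and Fgf12 to -0.069 and -0.095 with the covariates. The cause was not tested.

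Deviations of same-numbered libraries correlated at 0.379, 0.005, 0.567, -0.00625 and 0.051, and 2 of 5 libraries matched best with their own number, so the numbers were not taken as pairs. With a replicate block 0 genes and 0 of the 8 were called, and Fgf13 was at -0.018.

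The 6 genes following the pan-neuronal mean became 5 with DESeq2 size factors, 0 in the 7 libraries, 1 with the large-diameter mean, and 4 to 6 with 1 library left out. The 5 without SCN9A_2544 replicate 3 include Fgf14, negative. In the 7 libraries r was -0.243 for Scn2b, -0.132 for Scn3b and -0.443 for Fgf14. With 1 left out, r of Fgf14 ran from -0.78 to 0.382. Scn3b had -0.00381 with the large-diameter mean. Against the Schwann cell mean, which runs opposite to the neuronal one, r was -0.725 for Scn2b, -0.523 for Scn3b, -0.884 for Scn4b, -0.928 for Fgf12, -0.787 for Fgf13, -0.0294 for Fgf14, -0.841 for Nedd4l and -0.863 for Dpysl2.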

Other observations

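Fgf11, the remaining homologous factor gene, had 18 to 28 counts per library and a log2 fold change of 0.03 (95% interval -0.52 to 0.58, edgeR adjusted p = 0.996). Its groups overlapped, at 1.197 to 1.90 CPM with PBS and 1.13 to 1.97 CPM with the siRNA.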
